A study of Mus musculus with 80 samples.

Results

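Fibroblasts in which Kdm6b had been deleted with Pgr-Cre were compared with fibroblasts in which it had been deleted with Pdgfra-Cre, both from implantation sites (IS) on gestation day GD14.5. The comparison was chosen by genotype, day and site, and uses 6 of the 80 samples of the series, 3 for each driver, which the authors pooled into 2 of their 16 H3K27me3 peak lists. The series profiled H3K27me3 by CUT&RUN (antibody-guided nuclease cleavage of marked chromatin) in fibroblasts purified with magnetic beads from digested mouse myometrium and endometrium. The first group is labelled Pgr-Cre Kdm6bf/f and the second Pdgfra-Cre Kdm6bf/f, and both are conditional knockouts (cKO). Each has its own GD14.5 IS control list of Kdm6b f/f fibroblasts, again 3 pooled samples, called here the Pgr-Cre set control and the Pdgfra-Cre set control. All 4 groups carry the floxed Kdm6b alleles and came from matings to a B6 male. Pgr-Cre is driven by the progesterone receptor locus and acts in several uterine cell types. Pdgfra-Cre is driven by the platelet-derived growth factor receptor alpha gene, which marks mesenchymal cells. With 1 pooled list a group there are no replicates and no test, so every difference below is a description of these lists.

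H3K27me3, trimethylation of lysine 27 on histone H3, is laid down by Polycomb repressive complex 2 and is found over silent developmental genes, over much of the inactive X chromosome and in broad low domains elsewhere. KDM6B and the X-linked KDM6A remove it. In the uterus, stromal fibroblasts around the implantation site give rise to the decidua, while those of the muscle layer surround the smooth muscle that contracts at birth.

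The lists are lenient: the median fold over background was 1.13 in both cKO lists, and the smallest −log10 p was 0.349 in both. Sequencing depth is unknown. The Pgr-Cre cKO list held 287629 peaks and the Pdgfra-Cre cKO list 268325. The Pgr-Cre cKO list and its control carry peak names from a different peak calling run than the other 10 lists of the Kdm6b set, so the driver and the run cannot be told apart in what follows. The fibroblast label was checked against marker genes, where H3K27me3 over a gene goes with silence. Of 20 fibroblast identity genes, 3 averaged at least 5% coverage over the 2 cKO lists, against 10276 of all 21631 genes. Col1a1, the main fibrillar collagen gene, had 0% in both. Epithelial markers averaged 80.1% in Pgr-Cre cKO and 77.9% in Pdgfra-Cre cKO, and immune markers 58.8% and 55.8%. Endothelial markers averaged 54.3% and 51.3%, and trophoblast markers 45.5% and 51.6%. Smooth muscle markers averaged only 23.5% and 25.9%, close to the 24.3% and 24.1% over all genes. The 3 fibroblast genes with coverage were Pdgfra (21.7% and 28.4%), Thy1 (19.9% and 40.6%) and Hand2 (25.2% and 0.796%). At least 5% was averaged by 22 of 23 epithelial, 23 of 26 immune, 15 of 18 endothelial and 14 of 23 trophoblast markers. Some members of each of those lists thus lacked coverage, as many genes do. Apart from such members, the 3 fibroblast genes and the smooth muscle list, the markers did not go against the label. Whether smooth muscle cells were present cannot be told from this check.

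Over chromosomes 1 to 19 and X together both drivers gave much the same map, and as deposited the X was the main exception. Merged peaks covered 740 Mb in Pgr-Cre cKO and 732 Mb in Pdgfra-Cre cKO on chromosomes 1 to 19 and X. Of the first, 74.8% lay inside peaks of the second, and 75.6% the other way round. The control lists, measured the same way, covered 702 Mb and 609 Mb, and shared 71.7% of the Pgr-Cre set control and 82.7% of the Pdgfra-Cre set control. The shared length as a percent of the union was 60.3% for the knockouts and 62.3% for the controls, so the 2 knockout lists overlapped about as much as the 2 control lists. Across 21631 protein-coding genes, coverage of each gene extended by 2 kb at both ends correlated at r = 0.967 between the cKO lists and r = 0.969 between the controls, a description across genes that share the same annotation and mappability. It was 0.935 between Pgr-Cre cKO and its own control, and 0.958 between Pdgfra-Cre cKO and its own.

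On the X chromosome, peaks covered 52.4 Mb in Pgr-Cre cKO and 73.9 Mb in Pdgfra-Cre cKO, against 90.1 Mb and 89.1 Mb in their controls. Both cKO lists therefore covered less of the X than either control, and the Pgr-Cre list covered the least. The log2 ratio of Pgr-Cre cKO over Pdgfra-Cre cKO was -0.49 on the X, whereas on the 19 autosomes it ranged from 0.04 to 0.14. For the controls it was 0.02 on the X and 0.2 to 0.3 on the autosomes. When every list was cut by −log10 p to the same covered length of 487 Mb, the X ratio was -0.63 for the knockouts and -0.34 for the controls. At equal length the controls thus differed on the X in the same direction, with a smaller ratio. In length the controls covered 54.4 Mb and 69.1 Mb of the X and the knockouts 23.4 Mb and 36.3 Mb, so the gap in Mb was no smaller between controls.

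**Figure D1:**
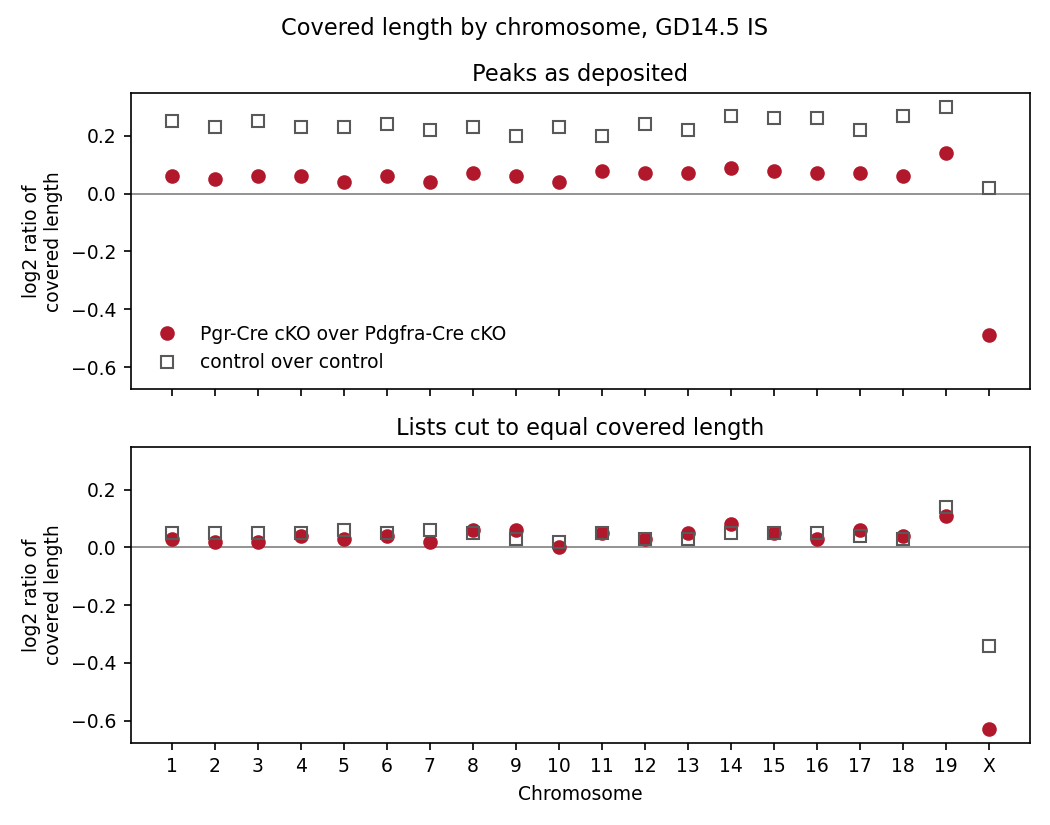
Log2 ratio of the length covered by merged peaks (y axis) on each chromosome (x axis), for the Pgr-Cre cKO list over the Pdgfra-Cre cKO list (filled circles) and for the Pgr-Cre set control over the Pdgfra-Cre set control (open squares), as deposited (top) and with lists cut to equal covered length (bottom). The X chromosome stands at -0.49 and -0.63 for the knockouts, below all 19 autosomes.

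The X peaks of the Pgr-Cre list were fewer and narrower: 30880 with a median width of 971 bp, against 34556 with 1236 bp in the Pdgfra-Cre list. Peaks at least 10 kb wide held 7.76 Mb of the X in Pgr-Cre cKO and 13.0 Mb in Pdgfra-Cre cKO. The lower coverage ran along the whole chromosome. In each of the 17 full windows of 10 Mb, coverage was lower in Pgr-Cre cKO than in Pdgfra-Cre cKO, and lower in Pdgfra-Cre cKO than in both controls. Mean coverage of the 966 X genes was 33.0% in Pgr-Cre cKO, 45.2% in Pdgfra-Cre cKO, 51.7% in the Pgr-Cre set control and 53.7% in the Pdgfra-Cre set control. The other 4 Pgr-Cre cKO lists, from other days and sites, covered 63.3 to 77.3 Mb of the X, a range that holds the Pdgfra-Cre value. Pgr-Cre cKO at GD14.5 IS was the lowest of the 6 cKO lists at 405 X genes (41.9%), and the Pdgfra-Cre list at 46 (4.76%). On the X the list furthest from the other knockouts was thus the Pgr-Cre GD14.5 IS list.

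Some X genes had this order, but as deposited not all did. Usp9x, a deubiquitinase gene, was covered over 18.8% of its window in Pgr-Cre cKO, 69.7% in Pdgfra-Cre cKO, 78.3% in the Pgr-Cre set control and 75.3% in the Pdgfra-Cre set control. Dmd, the dystrophin gene, stood at 28.4%, 61.8%, 73.0% and 72.6%, and Hdac8, a histone deacetylase gene, at 28.2%, 59.9%, 68.7% and 69.0%. These 3 were picked because they hold the 50 kb bins that differed. For Rbbp7, whose protein is a histone-binding subunit of Polycomb repressive complex 2, the values were 18.3%, 52.9%, 62.8% and 66.1%. In these 4 genes the Pgr-Cre list was lowest, the Pdgfra-Cre list next, and the controls highest. Timp1, which encodes a metalloproteinase inhibitor, went the other way, with 59.4%, 32.5%, 62.1% and 65.8%. Tsc22d3, a glucocorticoid-induced gene, varied little as deposited, with 74.8%, 66.7%, 72.8% and 70.3%. At equal covered length Tsc22d3 had 26.3%, 39.7%, 46.1% and 62.9%, the same order as those 4 genes. Timp1 then had 0%, 19.5%, 0% and 31.7%, no longer higher in Pgr-Cre cKO than in Pdgfra-Cre cKO. Kdm6a itself was nearly free of peaks, with 0.520%, 0.985%, 0.264% and 0.471%.

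Few genes differed strongly between the drivers. A difference of at least 50 points in coverage was called, and at that size 21 genes (0.0971% of those tested) were higher in Pgr-Cre cKO and 30 (0.139%) higher in Pdgfra-Cre cKO, 17 of the latter on the X. Between the 2 controls, 65 genes (0.300%) were higher in the Pgr-Cre set and 9 (0.0416%) in the Pdgfra-Cre set, so the number called between knockouts was no larger than that between controls. At 25 points, 226 (1.04%) were higher in Pgr-Cre cKO and 415 (1.92%) in Pdgfra-Cre cKO, 225 of the latter on the X, against 496 (2.29%) and 100 (0.462%) between controls, 29 of the 100 on the X. At equal covered length 388 (1.79%) and 448 (2.07%) differed by 25 points, and the X no longer set the knockouts apart: 98 X genes were lower in Pgr-Cre cKO, against 137 between controls. The mean difference over X genes was then -7.11 points between knockouts and -9 between controls, and the mean beyond controls on the X, -10.2 as deposited, turned to 1.89. On the autosomes alone the 2 directions at 25 points as deposited were close, 217 and 190. After cutting to equal length the counts at 50 points rose to 85 (0.393%) and 123 (0.569%), against 81 (0.374%) and 79 (0.365%) between controls. Short genes gave most of the calls: 39 of the 51 at 50 points were under 5 kb long, where the SD of the difference over genes was 12.4 points, compared with 6.00 for genes of 20 to 100 kb. Bmyc, at 50.5 points, was just past the call and Ly6m, at 49.9, just short of it.

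**Figure D2:**
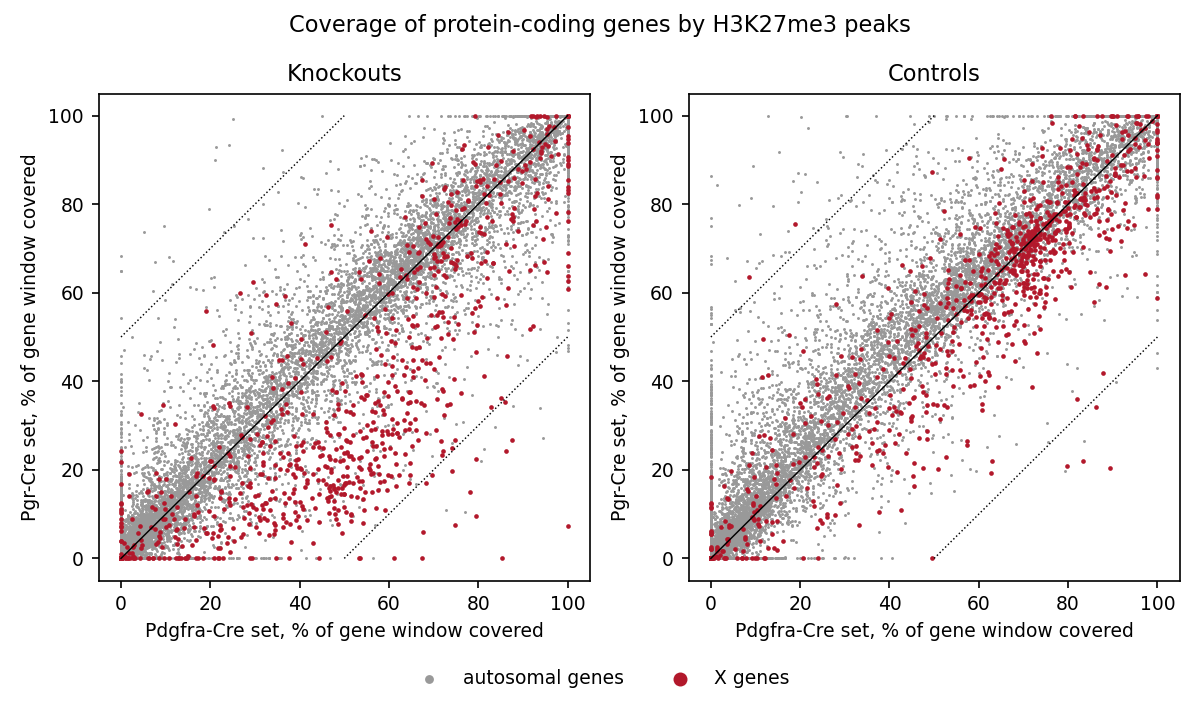
Percent of each gene window covered by peaks in the Pgr-Cre set (y axis) against the Pdgfra-Cre set (x axis) for 21631 protein-coding genes, knockouts left and controls right, with X genes in red, autosomal genes in grey, the diagonal as a solid line and differences of 50 points as dotted lines. The red cloud lies below the diagonal in the knockouts, where 225 of 966 X genes are at least 25 points lower in the Pgr-Cre list, and mostly along it in the controls, where 29 are. At equal covered length, not plotted, the counts are 98 and 137.

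Among genes at least 50 points higher in Pgr-Cre cKO both as deposited and at equal covered length, 5 have an established symbol. Fpr3 (chr17:17970458-17971677, mm10), a formyl peptide receptor gene of myeloid cells, was covered over 99.2% in Pgr-Cre cKO, 25.1% in Pdgfra-Cre cKO, 73.2% in the Pgr-Cre set control and 59.2% in the Pdgfra-Cre set control. Against their own controls the 2 drivers thus went opposite ways there. Ccl11 (chr11:82057832-82062955), the gene of the eosinophil chemokine eotaxin, had 73.8%, 5.13%, 16.7% and 14.6%. Mymx (chr17:45600961-45602196), which encodes a muscle cell fusion peptide, had 64.9%, 0%, 9.95% and 23.4%. Ear1, an eosinophil ribonuclease gene, had 100%, 45.1%, 80.4% and 53.8%, and Ifnl3, an interferon lambda gene, 87.3%, 36.2%, 72.9% and 36.8%. For Ear1 and Ifnl3 the controls differed in the same direction, by 26.6 and 36.1 points, whereas for Ccl11 they differed by 2.04.

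Ccl11 belongs to a block of chemokine genes that was covered more in Pgr-Cre cKO. The Ccl11 window held 1 peak of 16110 bp in that list and 1 of 468 bp in Pdgfra-Cre cKO. The wider peak had a fold of 1.22 and a −log10 p of 0.883, and whether it also covers Ccl7 was not tested. Ccl7, its neighbour, was covered over 54.0% and 12.2%, and over 0% in both controls. Ccl8 and Ccl12, on the other side and also chosen after their values were seen, were also covered: Ccl8 stood at 75.4% in Pgr-Cre cKO and 54.7% in Pdgfra-Cre cKO against 13.2% and 17.8% in their controls, and Ccl12 at 52.8% and 32.2% against 0% in both. As deposited both drivers were above their controls there, but at equal covered length Ccl8 had 0% in Pgr-Cre cKO and 12.7% in Pdgfra-Cre cKO, and Ccl12 19.9% and 12.9%, with 0% in the controls. Ccl7 and Ccl11 were covered over more than 50% in the Pgr-Cre list alone of the 4, at both settings. In the other 4 Pgr-Cre cKO lists Ccl11 had 0% to 20.6% and Ccl7 0% to 39.7%. Both were highest in the GD14.5 list from inter-implantation sites. Over the 41 chemokine and inflammatory genes the mean difference between drivers was 4.19 points and the median 0.363, with 2 higher by 25 points, Ccl11 and Ccl7, and 0 lower (all genes 1.04% and 1.92%). At equal covered length 7 were higher and 2 lower (all genes 1.79% and 2.07%).

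Higher in Pdgfra-Cre cKO by 50 points under both settings were 6 genes, 2 on the X. The largest difference was at Olfr1325 (chrX:74594328-74595275), an olfactory receptor gene, with 7.28% in Pgr-Cre cKO, 100% in Pdgfra-Cre cKO, 79.0% in the Pgr-Cre set control and 100% in the Pdgfra-Cre set control, and the X pseudogene Mageb17-ps had 26.7%, 87.5%, 96.4% and 84.6%. Both belong to families of near-identical copies, so reads may be split among them. Of the 4 autosomal genes, 1 is a predicted gene without an established symbol, and the others encode transcription factors of development. Sox9 (chr11:112782210-112787757), needed for cartilage and testis, had 33.9%, 93.9%, 79.5% and 100%. Six3 (chr17:85613608-85626191), a forebrain and eye factor, had 46.7%, 97.4%, 74.8% and 97.5%. Lbx1 (chr19:45232684-45236841), which guides migrating muscle precursors, had 46.8%, 100%, 86.7% and 100%.

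Promoter sequence is shown for 8 promoters of genes named here whose 250 bases before the start lay wholly outside peaks in one knockout and wholly inside in the other, a choice made after the values were seen. Each run is from the RefSeq promoter table (GRCm38.p6, the mm10 assembly), 5′ to 3′ on the gene's strand, with capitals marking each CG dinucleotide. Six3 is at chr17:85620584-85620833 (plus strand), Cdx2 at chr5:147307250-147307499 (minus), Nkx2-3 at chr19:43612075-43612324 (plus), Foxa1 at chr12:57546112-57546361 (minus) and an inner Ltbp1 promoter at chr17:75178531-75178780 (plus), and these 5 were outside peaks in Pgr-Cre cKO and inside in Pdgfra-Cre cKO. Foxd3 at chr4:99656049-99656298 (plus), Fpr3 at chr17:17970208-17970457 (plus) and Ear1 at chr14:43819640-43819889 (minus) were the reverse. The controls had the same split as the knockouts at Nkx2-3 (0% in the Pgr-Cre set and 100% in the Pdgfra-Cre set) and nearly so at Foxa1 (8.80% and 100%). At Six3 they had 100% and 23.2%, at Cdx2 100% and 96.4%, at Foxd3 100% in both, at Ltbp1 0% in both, at Fpr3 7.20% and 100%, and at Ear1 52.4% and 0%.
Six3: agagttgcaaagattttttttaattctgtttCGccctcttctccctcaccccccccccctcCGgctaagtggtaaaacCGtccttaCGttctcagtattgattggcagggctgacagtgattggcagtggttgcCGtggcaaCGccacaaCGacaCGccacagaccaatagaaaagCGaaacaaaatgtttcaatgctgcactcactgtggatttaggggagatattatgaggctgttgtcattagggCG
Cdx2: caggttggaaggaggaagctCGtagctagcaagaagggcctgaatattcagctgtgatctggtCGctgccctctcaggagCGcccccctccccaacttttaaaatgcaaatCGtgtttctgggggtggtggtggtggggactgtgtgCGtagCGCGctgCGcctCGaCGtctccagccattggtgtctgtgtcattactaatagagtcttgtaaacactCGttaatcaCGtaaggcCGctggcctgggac
Nkx2-3: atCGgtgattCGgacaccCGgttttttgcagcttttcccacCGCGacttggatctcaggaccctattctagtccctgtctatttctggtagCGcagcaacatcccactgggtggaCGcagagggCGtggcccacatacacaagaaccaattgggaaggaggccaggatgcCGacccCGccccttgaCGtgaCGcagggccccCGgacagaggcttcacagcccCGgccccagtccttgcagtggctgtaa
Foxa1: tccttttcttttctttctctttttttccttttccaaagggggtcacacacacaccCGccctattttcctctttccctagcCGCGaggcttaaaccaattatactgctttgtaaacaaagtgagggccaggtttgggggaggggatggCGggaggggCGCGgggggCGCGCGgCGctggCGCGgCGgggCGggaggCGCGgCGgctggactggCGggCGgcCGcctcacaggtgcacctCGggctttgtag
Fpr3: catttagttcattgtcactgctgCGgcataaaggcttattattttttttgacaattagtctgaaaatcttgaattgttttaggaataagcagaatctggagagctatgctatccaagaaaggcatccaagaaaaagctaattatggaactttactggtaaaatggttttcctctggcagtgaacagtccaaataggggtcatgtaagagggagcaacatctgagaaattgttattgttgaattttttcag
Ear1: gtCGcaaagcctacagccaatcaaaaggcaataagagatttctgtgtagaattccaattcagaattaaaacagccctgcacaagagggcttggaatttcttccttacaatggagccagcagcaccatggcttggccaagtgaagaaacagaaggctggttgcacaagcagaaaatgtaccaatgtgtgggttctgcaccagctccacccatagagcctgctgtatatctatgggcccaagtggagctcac
Foxd3: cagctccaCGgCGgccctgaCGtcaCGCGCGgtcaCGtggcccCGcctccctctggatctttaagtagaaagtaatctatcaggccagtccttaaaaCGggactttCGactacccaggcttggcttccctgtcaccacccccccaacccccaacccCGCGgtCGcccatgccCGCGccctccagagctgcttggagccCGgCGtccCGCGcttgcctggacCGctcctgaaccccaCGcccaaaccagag
Ltbp1: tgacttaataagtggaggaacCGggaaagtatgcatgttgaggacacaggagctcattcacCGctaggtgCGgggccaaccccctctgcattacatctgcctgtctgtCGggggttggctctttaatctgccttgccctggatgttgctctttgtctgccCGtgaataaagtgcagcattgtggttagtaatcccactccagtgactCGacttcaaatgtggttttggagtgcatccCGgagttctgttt

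The promoters hold 10 (Six3), 13 (Cdx2), 14 (Nkx2-3), 21 (Foxa1) and 7 (Ltbp1) CG dinucleotides in the first set. In the reverse set they hold 21 (Foxd3), 1 (Fpr3) and 1 (Ear1). Promoters so few, picked after their values were seen, cannot show whether CG count differs between the sets. CG reads the same on both strands, and the median over 21045 promoters of the same length was 10. At least 10 were found in 50.6% of promoters, at least 21 in 21.8% and at least 1 in 93.6%. Promoters rich in CG did not differ as a class: over 4788 starts with 26 to 60 CG in 300 bases, coverage within 1 kb of the start averaged 20.6% in Pgr-Cre cKO and 19.8% in Pdgfra-Cre cKO. Over the 3708 starts with 0 to 2 CG it averaged 29.7% and 29.4%. In all 7 classes of CG count the mean difference lay between 0.231 and 1.62 points, with the Pgr-Cre list higher as deposited.

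Sox9 and Six3, but not Lbx1, are on the list of developmental transcription factors. Developmental transcription factor genes are the classical Polycomb targets, and of 115 listed here 23 were at least 25 points lower in Pgr-Cre cKO than in Pdgfra-Cre cKO and 0 higher, where 1.92% of all genes were lower and 1.04% higher. Median coverage of the 115 was 95.0% in Pdgfra-Cre cKO, so most of them had no room to be 25 points higher. Of all 21631 genes, 10276 averaged at least 5% coverage over the 2 cKO lists, against 112 of the 115. Many of the other genes thus had no room to be lower, and the shares over all genes are a loose comparison. The mean difference was -10.9 points and the median -5.05, compared with 0.205 and 0 over all genes. Mean coverage was 76.5% in Pgr-Cre cKO, 87.5% in Pdgfra-Cre cKO, 82.6% in the Pgr-Cre set control and 88.7% in the Pdgfra-Cre set control. The controls differed in the same direction by 6.15 points, with 12 genes lower by 25 points and 0 higher (all genes 0.462% and 2.29%), so part of the difference between drivers was already present between the controls. Pgr-Cre cKO was 6.03 points under its control and Pdgfra-Cre cKO 1.24 points under its own. Under the equal-length setting the group was 21.7 points lower in Pgr-Cre cKO, with 38 genes lower and 0 higher by 25 points (all genes 2.07% and 1.79%), and the controls were 9.92 points apart, with 19 lower and 0 higher (all genes 1.66% and 1.79%).

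The low value was not shared by the other Pgr-Cre lists. The mean of 76.5% was the lowest of the 12 lists of the Kdm6b set, with the other 4 Pgr-Cre cKO lists at 84.1% to 88.7%. Next came the Pgr-Cre set control, at 82.6%, so the lists of the separate peak calling run were the lowest of the 12. Among the 6 cKO lists, 53 of the 115 genes were lowest in Pgr-Cre cKO at GD14.5 IS, against 4 in the Pdgfra-Cre list. The same list had the fewest strong peaks. Peaks whose −log10 q reached 2 numbered 121 in Pgr-Cre cKO, 303 in Pdgfra-Cre cKO, 846 in the Pgr-Cre set control and 1811 in the Pdgfra-Cre set control, and those at least 5 kb wide 23, 204, 719 and 1653. Within each set the cKO list had fewer strong peaks than its control and a lower mean over these genes. Across the sets, the Pgr-Cre set control had more strong peaks than Pdgfra-Cre cKO and a lower mean. Those 2 lists come from different peak calling runs, and whether the 2 measures are linked was not tested. The wide strong domains of the Pdgfra-Cre set control were still covered by peaks of any strength over a mean of 97.4% in Pgr-Cre cKO and 97.5% in Pdgfra-Cre cKO.

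**Figure D3:**
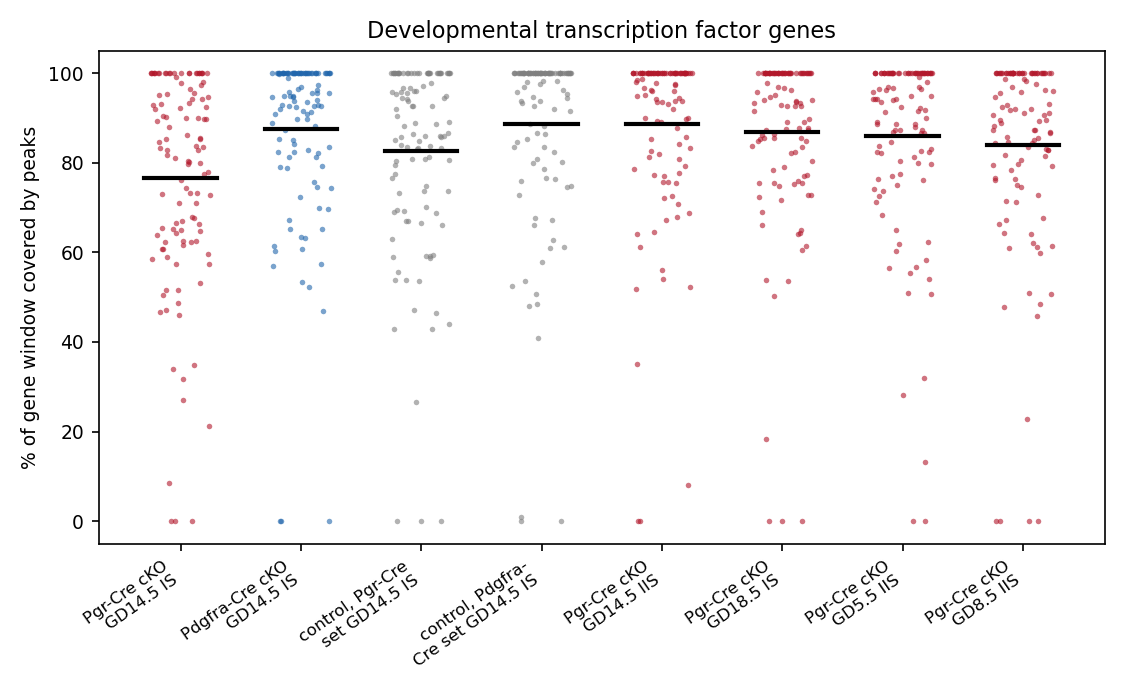
Percent of the gene window covered by peaks (y axis) for the 115 developmental transcription factor genes in 8 lists (x axis), 1 point a gene, with horizontal bars at the list means. The Pgr-Cre cKO GD14.5 IS list has the lowest mean, 76.5%, and 13 genes under 50%, against 4 in the Pdgfra-Cre cKO list.

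Other members, among them Sox2, Foxd3, Neurog1, Foxl2, Foxa1, Nkx2-3 and Gata5 chosen after their values were seen, show how the group varied. Foxa1, of endoderm, had 57.4% in Pgr-Cre cKO and 95.6% in Pdgfra-Cre cKO, and Nkx2-3, of gut and spleen, 46.0% and 84.1%. Cdx2 (chr5:147300900-147307249), a trophectoderm and gut factor, was covered over 27.1% in Pgr-Cre cKO, 94.6% in Pdgfra-Cre cKO, 86.6% in the Pgr-Cre set control and 88.7% in the Pdgfra-Cre set control. Sox2, a pluripotency and neural factor, had 51.5%, 100%, 92.7% and 100%. Foxd3, of the neural crest, had 31.8%, 72.3%, 76.5% and 100%. In Cdx2, Sox2 and Foxd3 the Pgr-Cre value lay below all 3 others and below the 4 other Pgr-Cre cKO lists. At equal covered length Cdx2 had 9.26% and 29.5% in the cKO lists, both far under controls of 86.6% and 88.7%, and the drivers were then 20.2 points apart, under the call. Neurog1, a proneural factor, had 60.8%, 100%, 59.0% and 100%, and Foxl2, an ovarian factor, 21.2%, 63.5%, 26.5% and 83.5%. For Neurog1 and Foxl2 both lists of the Pgr-Cre set were low, knockout and control alike, and at equal covered length Foxl2 had 0% in both cKO lists. At the other end, Gata5, a heart and gut factor, had 73.3% in Pgr-Cre cKO and 60.8% in Pdgfra-Cre cKO, the largest difference in that direction, but 58.7% and 60.8% at equal covered length.

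Peaks at 4 genes were counted one by one. At Sox9 the window held 4 peaks of at most 1400 bp in Pgr-Cre cKO and 2 peaks in Pdgfra-Cre cKO, the wider 21089 bp, while the widest was 8532 bp in the Pgr-Cre set control and 32631 bp in the Pdgfra-Cre set control. At Lbx1 there were 3 peaks of at most 2899 bp against 1 peak of 38420 bp, and again the controls were apart, at 5073 and 44101 bp. At Six3 the Pgr-Cre cKO list kept a peak of 13054 bp, close to the 13323 bp of its control, against 28069 bp in Pdgfra-Cre cKO. The Pgr-Cre set was thus narrower at these 3 genes in knockout and control alike. At Cdx2 4 of at most 1218 bp against 2, the wider 15737 bp, with 8899 and 17335 bp in the controls. Around 93 transcription starts of the 78 listed genes present in the promoter table, coverage at the start was 79.1% in Pgr-Cre cKO, 90.7% in Pdgfra-Cre cKO, 85.9% in the Pgr-Cre set control and 95.4% in the Pdgfra-Cre set control. At 20 kb downstream it was 81.1%, 77.5%, 75.7% and 69.6%. Within 1 kb of the start, 18 of the 78 genes were lower in Pgr-Cre cKO by 25 points and 0 higher, where 5.40% of all genes were lower and 6.47% higher. Between the controls 16 were lower and 0 higher, where 3.80% of all genes were lower and 6.42% higher. Coverage within 1 kb averaged 91.6% in Pdgfra-Cre cKO and 95.1% in its control, which left little room for higher values in the Pgr-Cre set. The Pgr-Cre cKO list was thus lowest at the start and highest at 20 kb downstream. The order varied along that flank, and at 18 kb downstream the Pgr-Cre cKO list had the lowest value, 75.0%. With lists cut to equal length the values at the start were 62.0%, 87.9%, 81.3% and 95.4%.

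**Figure D4:**
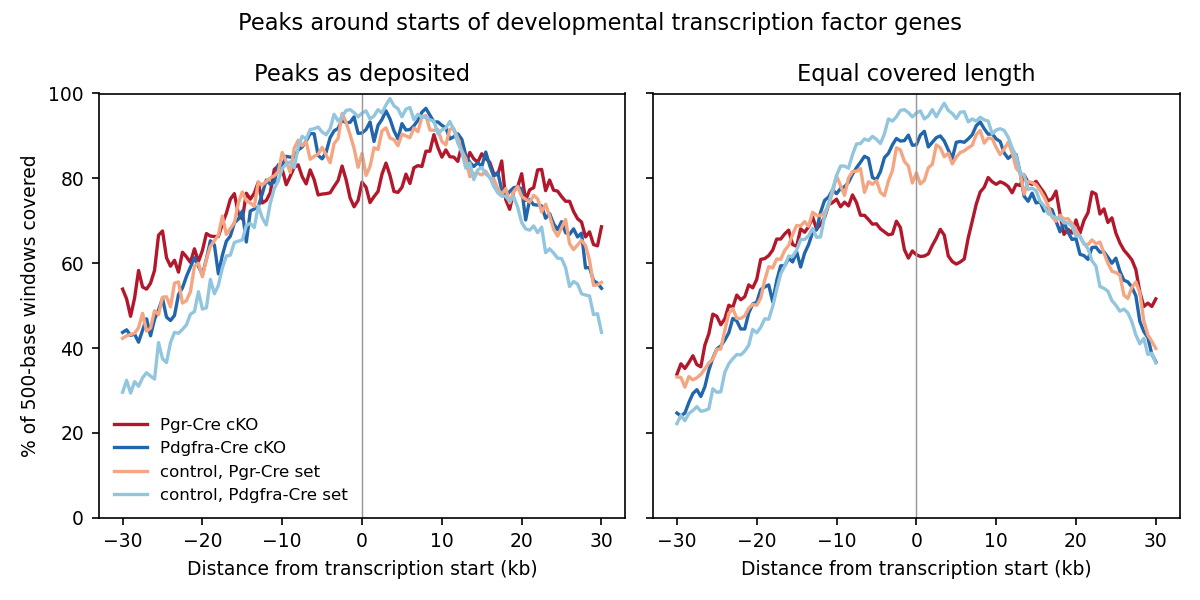
Mean percent of 500-base windows covered by peaks (y axis) by distance in kb from the transcription start, positive downstream (x axis), over 93 starts of developmental transcription factor genes, as deposited (left) and at equal covered length (right), 1 line a list. At the start the Pgr-Cre cKO line stands at 79.1% as deposited and 62.0% at equal length, and the Pdgfra-Cre cKO line at 90.7% and 87.9%. The Pgr-Cre cKO line has a broad low stretch around the start, with 73.3% at -1 kb as deposited and 59.8% at 5 kb at equal length.

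Other Polycomb-covered groups did not show it to that extent. Of 39 Hox genes, which set position along the body axis, 3 were lower in Pgr-Cre cKO by 25 points and 0 higher (all genes 1.92% and 1.04%), with a mean of -3.15, and at equal covered length 3 were lower and 2 higher. Hoxb13 had 65.9% and 93.1% in the cKO lists, and Hoxb7 56.6% and 84.7%. Their controls stood at 56.1% and 100% for Hoxb13 and at 63.6% and 89.3% for Hoxb7, apart in the same direction. Hoxc5 was 34.5 points lower as deposited, but 43.9 points higher in Pgr-Cre cKO at equal covered length. Wnt, BMP, FGF and hedgehog genes, 67 in number, differed by a mean of 0.843 points with a median of 0, and 1 gene, the BMP antagonist gene Nog, was lower by 25 points, near the share over all genes (74.3% and 100%, controls 78.8% and 100%). Trophoblast markers averaged -6.09, with 3 of 23 lower, Cdx2 and the X-linked Rhox6 (35.6% and 66.1%) and Rhox9 (31.5% and 65.9%), where 1.92% of all genes were lower. At equal covered length 1 of 23 was lower and the mean was -3.01, since Cdx2 and Rhox9 were then under 25 points.

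**Figure D5:**
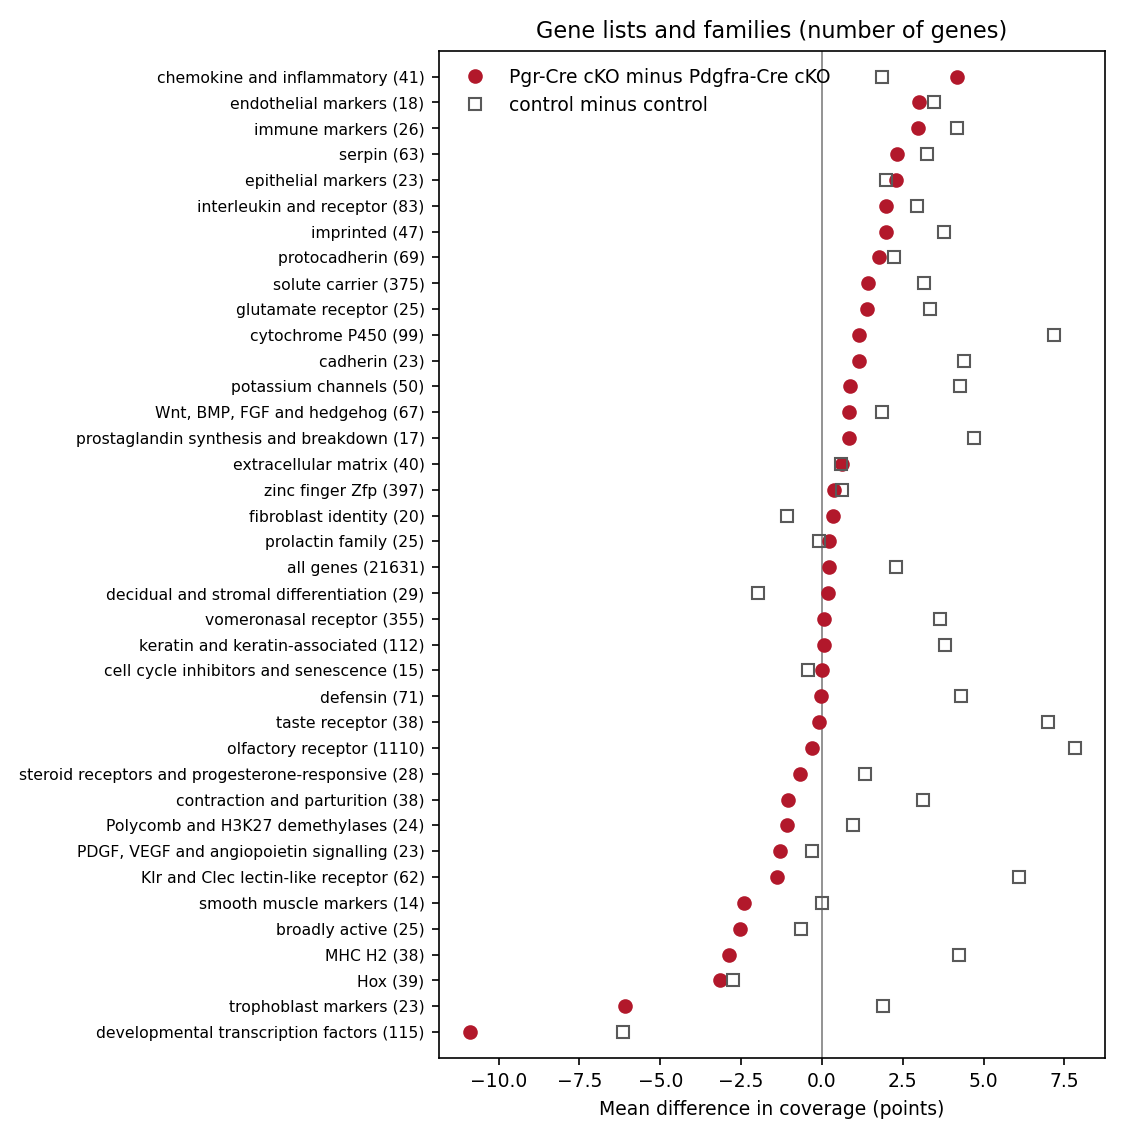
Mean difference in coverage, in points (x axis), for 37 gene lists and families and for all genes (y axis, number of genes in brackets), Pgr-Cre cKO minus Pdgfra-Cre cKO (filled circles) and Pgr-Cre set control minus Pdgfra-Cre set control (open squares). Developmental transcription factors stand lowest for the knockouts, at -10.9, and olfactory receptors highest for the controls, at 7.81.

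Of 38 contraction and parturition genes 0 were 25 points apart, a count near the shares over all genes (1.04% and 1.92%), and 2 were lower at equal covered length. As deposited the list had means of 37.5% in Pgr-Cre cKO and 38.6% in Pdgfra-Cre cKO against 32.5% and 29.4% in their controls. Adra1a, an alpha-1 adrenergic receptor gene, had 53.0% and 32%, both above its controls of 18.9% and 17.2%. Kcnn3, which encodes a calcium-activated potassium channel that quiets muscle, had 34.1% and 19.9%, above 3.59% and 4.99%. Slco2a1, the prostaglandin transporter gene, chosen because it gained with both drivers, had 72.3% and 69.9%, above 30.5% and 38%. In Adra1a, Kcnn3 and Slco2a1 both drivers were above both controls at both settings, though Kcnn3 fell to 5.92% and 3.39% in the cKO lists at equal covered length. Akr1c18, whose enzyme inactivates progesterone, did not keep that order, with 15.7% in Pgr-Cre cKO, 34.8% in Pdgfra-Cre cKO, 38.2% in the Pgr-Cre set control and 18.7% in the Pdgfra-Cre set control, and at equal covered length the drivers turned, to 8.33% and 0%.

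Among steroid genes, Hsd11b1, which regenerates active glucocorticoid, had 50.5% and 40.8% in the cKO lists and 19% and 6.01% in their controls. In the decidual list, 1 of 29 genes was 25 points apart, Inhbb, an activin and inhibin subunit gene, with 11.0% and 42.0%, or 0% and 17.1% at equal covered length. Bmp2, a decidual morphogen gene, had 23.8% in Pgr-Cre cKO, 0% in Pdgfra-Cre cKO, 25.2% in the Pgr-Cre set control and 20.6% in the Pdgfra-Cre set control. Hand2, a progesterone-dependent stromal factor gene, had 25.2%, 0.796%, 0% and 23.6%. For Hand2 the controls were apart in the opposite direction by about as much. The drivers' own genes differed little as deposited: Pgr had 0% in all 4 lists, and Pdgfra 21.7% and 28.4% against 22.6% and 26%. In the lists of equal length Pdgfra had 1.36% and 21.4%, against 4.78% and 24.2%. Kdm6b, the deleted gene, had 6.29% and 0.932% as deposited and 0% and 0.932% at equal covered length, a readout that does not check the deletion.

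Each driver was also set against its own control, 2 comparisons that share no sample. At 25 points, 453 genes (2.09%) were higher in Pgr-Cre cKO than in its control and 553 (2.56%) in Pdgfra-Cre cKO than in its own, and 208 were in both, 45.9% of the first and 37.6% of the second. Lower by 25 points were 839 (3.88%) and 274 (1.27%), with 161 in both, 19.2% of the first and 58.8% of the second, and 106 of the 161 lay on the X. At equal covered length 399 (1.84%) and 338 (1.56%) were higher, with 106 in both, and 848 (3.92%) and 699 (3.23%) lower, with 321 in both. With Pdgfra-Cre the balance thus turned, from more genes higher as deposited to more genes lower. Opposite calls as deposited were 5 genes higher with Pgr-Cre and lower with Pdgfra-Cre, and 37 the other way. The 5 were among the 453 higher with Pgr-Cre, where 1.27% of all genes were lower with Pdgfra-Cre. The 37 were among the 839 lower with Pgr-Cre, where 2.56% of all genes were higher with Pdgfra-Cre. At equal covered length the opposite calls were 27 and 33. Across 20665 autosomal genes the 2 differences correlated at r = 0.412, and across 966 X genes at 0.562.

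Subtracting the controls left more genes apart than the direct comparison. By that measure 34 genes (0.157%) were at least 50 points higher with Pgr-Cre and 147 (0.680%) higher with Pdgfra-Cre. With the further need of 50 points at equal covered length and 25 between the knockouts, 10 and 24 genes were left, and 14 of the 24 were olfactory receptors, a family that makes up 5.13% of all genes. Over 1110 olfactory receptor genes the knockouts differed by a mean of -0.301 points, 43 higher and 52 lower by 25 points (all genes 1.04% and 1.92%), and the controls by 7.81, 155 higher and 12 lower (all genes 2.29% and 0.462%). With equal covered length the control mean was 2.93, with 91 higher and 35 lower. Mt2, a metallothionein gene, was among the 10, with 73.8% in Pgr-Cre cKO, 23.1% in Pdgfra-Cre cKO, 5.90% in the Pgr-Cre set control and 37.6% in the Pdgfra-Cre set control.

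Of 26301 bins of 100 kb, 0 (0%) were at least 50 points higher in Pgr-Cre cKO and 1 (0.00380%) higher in Pdgfra-Cre cKO. That bin, chr17:75100001-75200000, lies in Ltbp1, which encodes a protein that stores latent TGF-beta in the matrix, and was covered over 5.01% in Pgr-Cre cKO, 56.4% in Pdgfra-Cre cKO, 12.9% in the Pgr-Cre set control and 20.2% in the Pdgfra-Cre set control. The whole Ltbp1 window had 2.67%, 27.7%, 5.28% and 7.70%, and 13.0% to 31.1% in the other 4 Pgr-Cre cKO lists. At 25 points, 18 bins (0.0684%) were higher in Pgr-Cre cKO and 277 (1.05%) in Pdgfra-Cre cKO, of which 257 lay on the X, and between the controls 70 (0.266%) and 0 (0%). With lists cut to equal length 22 (0.0836%) and 136 (0.517%) differed, 111 of the 136 on the X, against 6 (0.0228%) and 157 (0.597%) between the controls. The number of bins lower in the Pgr-Cre set was thus no larger between knockouts than between controls at that setting. With 50 kb bins at equal length 379 (0.720%) were higher and 670 (1.27%) lower by 25 points, 11 and 352 of them on the X. As deposited, with 50 kb bins 1 and 9 differed by 50 points, the 1 in Aff3, which encodes a nuclear transcription regulator, and 7 of the 9 on the X.

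Set beside all 5 Pgr-Cre cKO lists, the Pdgfra-Cre list was at least 25 points above every one at 29 genes and below every one at 7. The Pgr-Cre GD14.5 IS list was above the other 5 cKO lists at 31 and below at 68, 42 of those on the X, and the remaining 4 lists were above at 5 to 31 and below at 6 to 36. By these counts the Pdgfra-Cre list was not the one furthest from the rest. Below all 5 were both genes of soluble guanylate cyclase, the nitric oxide receptor, which are neighbours on chromosome 3. Gucy1a1 had 16.7% in the Pdgfra-Cre list and at least 55.4% in each Pgr-Cre list, and Gucy1b1 6.24% and at least 31.6%. Sprr1b, a cornified envelope gene, had 80.6% in the Pdgfra-Cre list and at most 23.4% in each Pgr-Cre list. After cutting to equal length the cKO lists had 23.2% and 4.55% at Gucy1a1, 1.12% and 0.510% at Gucy1b1, and 0% in both at Sprr1b. Gucy1a1, Gucy1b1 and Sprr1b were chosen after their values were seen.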

How the data were processed

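Per the labels, STAR 2.7.5c, samtools 1.10, bedtools 2.29.1 and bedGraphToBigWig 2.8 were used for signal tracks and macs2 2.2.7.1 for peaks, and the build is mm10. The signal tracks were not used here. The authors deposited for each peak the fold over background (a ratio), the −log10 p and the −log10 q as macs2 gives them, with 1 list for 3 samples, per the labels. How many reads each list rests on is unknown.

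Peaks on chromosomes 1 to 19 and X were merged, and coverage was the percent of a protein-coding gene span with 2 kb flanks, or of a 100 kb bin, inside them (python 3.11.15, numpy 2.4.6, pandas 2.3.3). To equalise covered length, lists were ranked by −log10 p and cut at 80% of the shortest list of the Kdm6b set. Positions are 1-based. The coverage step was tested on simulated peaks. Promoters were given for 79.9% of genes by symbol.

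Named genes were the 10 largest each way past 50 points under both settings, the 10 largest each way beyond controls, Kdm6b, Kdm6a, Pgr and Pdgfra, the 3 largest of each list, and genes in the 5 longest runs of differing bins each way. The members and lists were chosen with earlier results of these data known. One library titled as an input but labelled with the H3K27me3 antibody was placed with the inputs. Alternatives were fold, −log10 q, flank, size and bin settings. Start windows and the transcription factor counts under other settings were added after seeing the data.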

Additional observations from a re-analysis of the deposited data

Results flagged for a closer look

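Between the drivers, 8 genes named by the rule on differences beyond controls or by the largest difference between knockouts moved opposite ways against their own controls, by at least 25 points each way. The rule picks genes with such values, each driver has 1 pooled pair of lists, and the difference was not tested. Fpr3, the formyl peptide receptor gene, was 26 points higher in Pgr-Cre cKO than in its control and -34.1 points against its control in Pdgfra-Cre cKO. In the other 7 genes the Pgr-Cre value was negative and the Pdgfra-Cre value positive. For olfactory receptor genes, the pairs of differences were -66.3 and 35.2 at Olfr1335, -56.3 and 27.6 at Olfr1406, -59.5 and 46.4 at Olfr1499, -54.0 and 69.3 at Olfr402, and -86.3 and 35.4 at Olfr61. At the vomeronasal receptor gene Vmn1r180 they were -75.1 and 50.8, and at the keratin-associated gene Krtap21-1 -46.9 and 31.8. At equal covered length the differences were 26 and -27.5 at Fpr3, the 1 gene of the 8 that kept 25 points each way. They were -90.9 and -31.7 at Olfr1335, -72.9 and 8.00 at Olfr1406, -94.3 and -15.7 at Olfr1499, -99.8 and 0 at Olfr402, -60.8 and 0 at Olfr61, -68.8 and 1.75 at Vmn1r180 and -14.1 and 45 at Krtap21-1. The other 7 are short genes of families with similar copies. Fpr3, of 1220 bp, is short as well, and its coverage ran from 0% to 74.0% in the other 4 Pgr-Cre cKO lists. Whether similar copies affect Fpr3 too was not tested.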

How the results depend on the processing

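No paired analysis was possible because the peaks were called on pooled samples, and for the same reason leaving out a replicate was not done. Read depth is unknown, and its effect on the weak peaks was not tested.

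The log2 ratio of covered length over all chromosomes, 0.02 as deposited, was 0 at equal length by construction, -3.42 with −log10 q of at least 2 and -0.04 with a fold of at least 1.2. On the X, -0.49 became -0.63, -0.08 and -0.66. The -0.08 rests on strong peaks over 0.00945 Mb of the X in Pgr-Cre cKO and 0.0100 Mb in Pdgfra-Cre cKO, too little to describe the X. Genes higher in Pgr-Cre cKO numbered 21 as deposited, and 85 at equal length, 0 at −log10 q of at least 2, 96 at a fold of at least 1.2, 3 with 5 kb flanks, 130 with no flank, 226 at 25 points and 310 in start windows. Genes higher in Pdgfra-Cre cKO numbered 30, and 123, 109, 159, 9, 164, 415 and 275 in the same order, and 13 on the autosomes alone. Beyond controls, 34 were higher with Pgr-Cre, and 146, 306, 196, 7, 148 and 233 in that order without start windows. Higher with Pdgfra-Cre were 147, and 219 at equal length, 117 at −log10 q of at least 2 and 249 at a fold of at least 1.2. With 5 kb flanks there were 75, with no flank 372 and at 25 points 846. At −log10 q of at least 2 the balance thus turned, to 306 with Pgr-Cre and 117 with Pdgfra-Cre. The cause of these moves was not tested.

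Developmental transcription factor genes lower in Pgr-Cre cKO by 25 points numbered 23, and 38 at equal length, 38 at a fold of at least 1.2, 13 with 5 kb flanks and 2 at −log10 q of at least 2. Pgr-Cre cKO peaks touching a Pdgfra-Cre cKO peak were 71.6%, and 63.3% at equal length and 54.7% when at least 50% of the peak had to be covered. Bins of 100 kb higher in Pgr-Cre cKO were 0, and 1 at equal length and 1 with 50 kb bins. Those higher in Pdgfra-Cre cKO were 1, and 0 and 9. Of 37 list means, 28 kept their sign at equal length. Of 130 named genes, 96 did. Among those at least 25 points apart as deposited, 9 changed sign, to -0.456 at Cyp2d34, 10.6 at Defb34, 21.7 at Defb4, 43.9 at Hoxc5, 3.39 at Hprt, -10.6 at Olfr1391, 5.70 at Olfr1499, -19.5 at Timp1 and 4.76 at Vegfd. Smaller differences also changed sign, for example at Pcdhb2 from 11.9 to -30.6 and at Ezhip from 9.56 to -24.1.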
